A study of Mus musculus with 4 samples.

Results

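The genes described here encode the chains of the collagen fibril of cartilage, namely Col2a1 (type II collagen), Col9a1, Col9a2 and Col9a3 (type IX), Col11a1 and Col11a2 (type XI) and Col27a1 (type XXVII). They were taken from the table of expression values by gene symbol, which found all 7 among 24532 genes. Expression was measured by RNA sequencing of knee cartilage from wild-type male C57BL/6 mice of 2 ages, after sham surgery or after a cartilage injury, with no transgene or drug named for any group. Young mice were 3 weeks old, and the age of the adult mice is 12 weeks in the sample titles, 14 weeks in another label and 10 weeks in the methods of the study. The methods describe a full-thickness cartilage injury (FTCI) made with a needle in the patellar groove of the left knee, although the labels call the operation DMM, an instability surgery of the meniscus. Injured cartilage was collected on day 3, whereas the adult sham label spans days 3 to 14. RNA came from pooled cartilage of 10 injured or 5 uninjured mice and made 1 library a group, so there is no replicate, no SD and no p-value, and the spread between mice is unknown for every value below.

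Type II collagen is the main collagen of hyaline cartilage, and its molecule is built from identical chains of 1 gene. Type XI collagen copolymerizes inside the same fibril and limits its width, type IX collagen sits on the fibril surface and links it to other matrix components, and type XXVII collagen forms thin fibrils of its own and is known from the growth zones of cartilage. These genes are classical markers of differentiated chondrocytes and are controlled by Sox9 with its partners Sox5 and Sox6.

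Expression is given as FPKM, the fragments of a gene relative to transcript length and library size, so levels of different genes can be set side by side. Where 4 values stand in a row below, they belong to the sham and the injured library of young mice and then to the sham and the injured library of adult mice. Ratios between libraries were calculated as log2 of FPKM + 1, and a gene was called higher or lower at 2-fold or more, among 18181 genes above 0 in at least 1 library. In bulk tissue, fewer cells of a type and less RNA per cell cannot be told apart. The FPKM of a library summed to between 469939 and 533468. If the smallest step in the values is 1 fragment, the libraries held between 26400000 and 31200000 fragments, and the member with the fewest in a library, Col9a1 in adult sham cartilage, about 3900, a counting error of 1.6%. The labelled cell type, the chondrocyte, was checked with 18 marker genes, and all were at 1 FPKM or more in both young libraries. In adult sham cartilage Epyc, a small proteoglycan, was at 0, and the matrilin genes Matn1 and Matn3 were at 2.65 and 2.30 FPKM, against 1661 and 392 FPKM in young sham cartilage. The secreted chondrocyte factor Cytl1 went the other way, at 26541 FPKM in adult sham and 648 FPKM in young sham cartilage.

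Col2a1 was the most abundant of the 7 genes in every library. It reached 9349 FPKM in young sham, 7903 FPKM in young injured, 3173 FPKM in adult sham and 3749.7 FPKM in adult injured cartilage. Both young libraries were above both adult libraries, and the gene ranked 3, 5, 17 and 12 among all genes in the same order of libraries. Col2a1 lies on chromosome 15 (97975602 to 98004724, GRCm38.p6) and made up 71.2%, 71.6%, 76.1% and 66.3% of the FPKM of the 7 genes added up. Its transcripts with and without the exon of the amino-terminal cysteine-rich domain are not separated by a gene-level value.

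The 3 genes of type IX collagen, whose products join in 1 heterotrimer, did not share 1 range. Col9a1 was at 955 FPKM in young sham, 687 FPKM in young injured, 40.9 FPKM in adult sham and 161.5 FPKM in adult injured cartilage. It was the second most abundant of the 7 genes in young sham cartilage and the lowest of them in both adult libraries. Col9a2 was at 587, 483, 169 and 352 FPKM. Col9a3 was at 748, 737, 329.9 and 529 FPKM and stood behind Col2a1 alone in both adult libraries and in young injured cartilage. All 3 genes were lowest in adult sham cartilage and higher in each young library than in either adult library. Their loci are on chromosome 1 (Col9a1, 24177589 to 24252738), chromosome 4 (Col9a2, 121039566 to 121055325) and chromosome 2 (Col9a3, 180598102 to 180622192).

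Col9a1 has 2 known promoters, an upstream one for the long chain with the amino-terminal NC4 domain and a downstream one for the short chain, and both are shown because this gene had the widest range of the 7. The promoter of Col27a1 is shown beside them because that gene alone had another order of the libraries. Each line gives 250 bases before a RefSeq transcript start, on the plus strand of GRCm38.p6, 5′ to 3′, with matches in capitals to the TATA box (TATAAA), the GC box (GGGCGG) or the core bound by SOX factors (CAAAG or CAATG), searched on both strands, so that CTTTG and CCGCCC also count.
Col9a1, upstream start, chr1:24177360-24177609: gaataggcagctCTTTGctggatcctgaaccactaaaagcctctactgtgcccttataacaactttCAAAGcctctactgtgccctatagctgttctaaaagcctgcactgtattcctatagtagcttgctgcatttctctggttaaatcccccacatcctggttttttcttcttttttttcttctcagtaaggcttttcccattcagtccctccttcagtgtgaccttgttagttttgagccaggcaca
Col9a1, downstream start, chr1:24194953-24195202: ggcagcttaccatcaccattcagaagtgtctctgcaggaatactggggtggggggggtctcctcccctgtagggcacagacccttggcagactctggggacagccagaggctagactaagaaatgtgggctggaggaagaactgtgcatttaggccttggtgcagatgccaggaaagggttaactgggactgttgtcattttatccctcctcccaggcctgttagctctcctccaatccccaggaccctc
Col27a1, chr4:63215162-63215411: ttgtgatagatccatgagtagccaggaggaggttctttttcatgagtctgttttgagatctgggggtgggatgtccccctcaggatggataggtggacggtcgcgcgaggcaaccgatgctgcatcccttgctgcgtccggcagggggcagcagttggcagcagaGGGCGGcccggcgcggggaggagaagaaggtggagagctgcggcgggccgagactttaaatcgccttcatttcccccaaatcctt
The upstream Col9a1 window held 2 SOX cores, ending 233 and 179 bases before the start, and had a GC content of 43.6%. The downstream window lies inside the gene, held none of the 3 motifs and had a GC content of 56.0%. The Col27a1 window also lies inside the annotated gene and held 1 GC box and no SOX core, with a GC content of 59.6%. Among 32851 mouse promoters, 65.0% held a SOX core, 32.7% a GC box and 12.4% a TATA box, and the median GC content was 52.4%. The windows of Col9a2, Col11a1 and Col11a2 held 1, 1 and 2 SOX cores and 2 GC boxes each, and of these 6 windows only that of Col11a2 held a TATA box. Col2a1 and Col9a3 had no entry. A match describes the letters of a window and is not a measured binding site, and FPKM per gene do not separate transcripts from the 2 starts of Col9a1.

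The 2 genes of type XI collagen moved within similar ranges. Col11a1, on chromosome 3 (114030479 to 114220756), was at 768.5 FPKM in young sham, 593 FPKM in young injured, 159 FPKM in adult sham and 324 FPKM in adult injured cartilage. Col11a2, on chromosome 17 (34038919 to 34066684), was at 569, 459, 188 and 309.6 FPKM. For both genes the libraries fell in the same order, with young sham highest, then young injured, adult injured and adult sham. The third chain of type XI collagen is a modified product of Col2a1.

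Col27a1 was the least abundant of the 7 genes in both young libraries and had the narrowest range. It was at 154 FPKM in young sham, 173 FPKM in young injured, 108 FPKM in adult sham and 225 FPKM in adult injured cartilage. The order of the libraries was unlike that of the other 6 genes, because both injured libraries were above both sham libraries and the adult injured library was highest. The locus is on chromosome 4 (63214009 to 63334991) and also holds the microRNA gene Mir455, listed at 0 to 0.898 FPKM. Of the 31-base words of the transcripts, 0.564% for Col27a1, 0.125% for Col11a1 and 0% for the other 5 genes occurred in another gene.

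**Figure D1:**
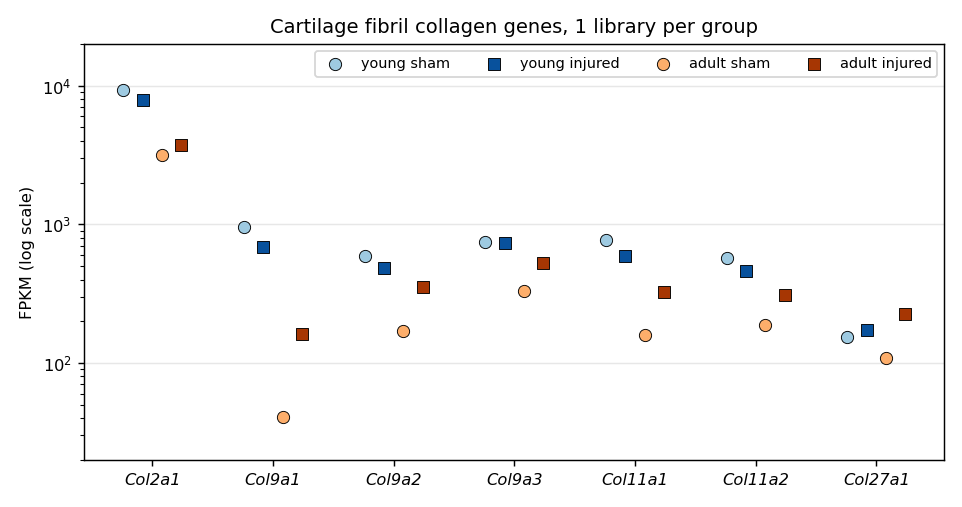
FPKM on a log axis for each of the 7 genes, with 1 point for each of the 4 libraries and no error bar because each group is 1 library. The adult sham point is the lowest for all 7 genes, from 40.9 FPKM for Col9a1 to 3173 FPKM for Col2a1, and only Col27a1 has an adult point above its young points.

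The comparison of the sham groups asked how the genes differed with age in uninjured joints. In adult sham cartilage 6 of the 7 genes were called lower than in young sham cartilage, all but Col27a1, where 10.6% of all genes were called lower. Of the 638 abundant genes, those averaging 100 FPKM or more, 19.1% were lower. The share of genes called higher was 2.66% of all and 10.2% of the abundant ones. The median log2 ratio of the 7 genes was -1.59, against -0.15 over all genes. Adult sham cartilage held 4.29% of the young sham level of Col9a1 (log2 ratio -4.51) and 20.7% of that of Col11a1 (log2 ratio -2.27). The level was 28.8% for Col9a2, 33.0% for Col11a2, 33.9% for Col2a1 and 44.1% for Col9a3. Col27a1 was at 70.0% of its young sham level (log2 ratio -0.51) and was not called. After median-of-ratios scaling, which set the all-gene median to 0.00, the median of the 7 genes was -1.16 and 5 were called lower, where 5.13% of all genes were. Chondrocyte marker scaling aligned the median level of the 18 marker genes in every library. Of these markers 9 were themselves lower and 3 higher in adult sham cartilage, and their median log2 ratio was -0.98. Scaling by that median ratio, which can differ from the shift in median level, was not run. After alignment of the median level, the ratios of Col9a3 and Col27a1 turned to 0.35 and 1.01, and 1 gene, Col9a1, was called lower. With that scaling 0.99% of all genes were called lower and 32.6% higher, and the all-gene median was 0.59.

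The adult sham library also differed in markers of other tissues, and their part in the values of the 7 genes was not tested. Of 14 skeletal muscle genes 8 were called higher in adult than in young sham cartilage, with a summed level of 1924 against 991 FPKM. Of 13 osteoblast genes 7 were called higher and 0 lower, with a summed level of 6274 against 1393 FPKM, and the bone matrix gene Ibsp was at 4136 against 369 FPKM. Of 10 erythroid genes 8 were called lower and 1 (Hbb-bs) higher, and their summed level was 8363 against 24564 FPKM. Of 8 B cell genes 7 were called lower, with 13.5 against 57.9 FPKM in sum. Of 14 macrophage genes 6 were called higher and 1 lower, with 339.6 against 215 FPKM, and of 9 hypertrophic chondrocyte genes 4 were called higher and 2 lower, with 8178 against 1343 FPKM. The osteoblast and hypertrophic lists share Ibsp and Alpl, the latter at 676 against 61.3 FPKM, and both genes are among the calls of each. None of the genes of these 6 lists was at 0 in either sham library. None of 10 housekeeping genes was called in any comparison, although their median log2 ratio between the sham libraries was -0.52. Since this library enters both the age comparison and the adult injury comparison, adult injured cartilage was also set against young sham cartilage, a choice made after seeing the data. In that comparison the median log2 ratio of the 7 genes was -0.88 against -0.03 over all genes, and Col2a1, Col9a1 and Col11a1 were called lower, where 4.15% of all genes were, with log2 ratios of -1.32, -2.56 and -1.25.

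In young mice, injured and sham cartilage were compared to ask what the injury did on day 3. None of the 7 genes was called in either direction, where 4.57% of all genes were called higher and 1.27% lower, and 7.68% and 2.98% of the abundant ones. The log2 ratios ran from -0.47 for Col9a1 to 0.17 for Col27a1, with a median of -0.28 against 0.00 over all genes. Injured cartilage held 71.9% of the sham level of Col9a1, 77.2% of that of Col11a1, 80.6% of that of Col11a2, 82.2% of that of Col9a2 and 84.5% of that of Col2a1. Col9a3 was at 98.5% and Col27a1 at 112% of the sham level. The values of 6 genes were below the sham level, but Col9a3 moved to a log2 ratio of 0.18 when the libraries were scaled to the chondrocyte markers. Under quantile normalization Col2a1 was at a log2 ratio of -0.93, short of a call. With 1 library a group, it is not known whether differences of this size exceed those between pools of mice.

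In adult mice, all 7 genes were higher in injured than in sham cartilage, although Col2a1 turned to a log2 ratio of -0.10 after median-of-ratios scaling. The call was reached by 4 genes, where 6.90% of all genes and 9.56% of the 638 abundant genes were called higher and 1.46% and 6.58% lower. Col9a1 rose to 394% of its sham level (log2 ratio 1.95). Col27a1 rose to 209% (log2 ratio 1.05), Col9a2 to 208% (log2 ratio 1.06) and Col11a1 to 204% (log2 ratio 1.02), all just past the threshold. Below it, Col11a2 was at 165% and Col9a3 at 160% of the sham level, with log2 ratios of 0.72 and 0.68. Col2a1 was at 118% (log2 ratio 0.24). The median of the 7 genes was 1.02 against 0.14 over all genes, and after median-of-ratios scaling, which took the all-gene median to 0.00, it was 0.69 and Col9a1 alone was called higher, where 4.41% of all genes were. The injured level of Col9a1, 161.5 FPKM, was still far below the 955 FPKM of young sham cartilage, whereas that of Col27a1, 225 FPKM, was above the 154 FPKM of young sham cartilage.

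Markers of other cell types also moved with injury, and their part in the values of the collagen genes was not tested. Of 14 macrophage genes 13 were called higher after injury at each age, and their summed level was 215, 2006, 339.6 and 1727 FPKM. Of 8 osteoclast genes 4 were called higher in young and 7 in adult injured cartilage, with summed levels of 282, 719, 361 and 1351 FPKM. Endothelial genes were called higher for 6 of 7 at each age, and neutrophil genes for 5 of 13 in young and 3 of 13 in adult mice. In the list of 12 fibroblast and synovium genes, 3 were called higher in young and 4 in adult mice. Called lower were 1 in young mice (Prg4, also a gene of the cartilage surface) and 2 in adult mice (Dpt and Clec3b). Of 13 osteoblast genes 3 were called higher in young mice, and 5 higher and 1 lower in adult mice, where their summed level was 7265 FPKM in injured and 6274 FPKM in sham cartilage. The fibroblast and osteoblast lists share Col1a1 and Col1a2. Col1a1 is among the higher calls of both lists at each age, and Col1a2 in adult mice. All 10 erythroid genes were above sham in young injured cartilage, with 43480.2 against 24564 FPKM in sum and 1 called higher, and in adult mice 1 was called higher and 3 lower. Of 14 muscle genes 10 were called lower in the injured than in the sham cartilage of adult mice, with 534 against 1924 FPKM in sum, and 2 were called lower in young mice. Of the 18 chondrocyte markers 1 (Matn1) was called lower and 0 higher in young injured cartilage, where 11 were below sham and the median log2 ratio was -0.19. In adult mice 3 were called higher and 2 lower, and none of these 5 was a transcription factor, with a median log2 ratio of -0.01. Acan, the core protein of the main cartilage proteoglycan, rose from 214 to 559 FPKM, and Matn1 and Matn4 also rose in adult mice, whereas Cytl1 and Chad, a collagen-binding protein, fell.

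Injured cartilage was also compared directly between the ages. Col2a1 and Col9a1 were called higher in young than in adult injured cartilage, with log2 ratios of 1.08 and 2.08, where 3.09% of all and 7.05% of the abundant genes were called higher, and 1.80% and 8.78% lower. The other 4 genes of types IX and XI had log2 ratios between 0.45 and 0.87, and Col27a1 had a log2 ratio of -0.38. The median was 0.57, against 0.04 over all genes. The call for Col2a1 was close to the threshold and was lost at a log2 ratio of 0.89 after rescaling every library to 1 common sum (TPM). Scaled to the median level of the chondrocyte markers, the median of the 7 genes turned to -0.61 and Col2a1 to -0.10. The markers' own median log2 ratio was 0.19, and scaling by that ratio was not run. Col9a1 was no longer called at 0.91, and Col27a1 was called lower at -1.55. With this scaling 29.4% of all genes were called lower and 0.605% higher, and the all-gene median was -0.69. Markers of other cells also differed between the injured libraries, and their part in these values was not tested. All 10 erythroid genes were called higher in young injured cartilage, with 43480.2 against 6942 FPKM in sum, as were 6 of 8 B cell genes, with 79.1 against 22.1 FPKM. Of 13 osteoblast genes 6 were called lower and all were below the adult level, with 2360 against 7265 FPKM, and 5 of 9 genes of hypertrophic chondrocytes were called lower, with 3955 against 12861 FPKM, Ibsp and Alpl being in both lists. Of 8 osteoclast genes 4 were called lower, with 719 against 1351 FPKM, and of the 18 chondrocyte markers 7 were called higher and 4 lower. None of these genes was at 0 in either injured library.

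**Figure D2:**
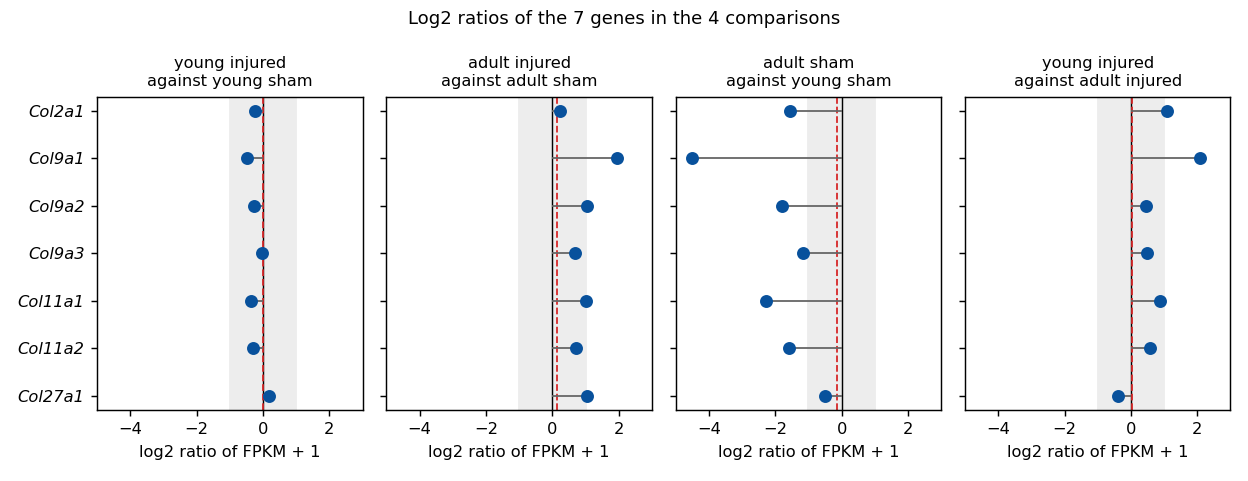
Log2 ratio of FPKM + 1 of the 7 genes in each of the 4 comparisons, with the band of less than 2-fold in grey and the median over all genes as a dashed red line; each point compares 1 library with 1 library. Col9a1 lies farthest out in the adult injury (1.95), age (-4.51) and injured-cartilage (2.08) panels, and all 7 points of the young injury panel lie inside the band.

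Set side by side, the values of 6 genes were below sham in young and above sham in adult injured cartilage, a pattern that 29.6% of all genes and 22.1% of the abundant genes showed. Col27a1 was the exception, being above sham at both ages. The same 6 genes were highest in young sham cartilage, as were 34.1% of all and 28.4% of the abundant genes, and had both adult libraries below both young libraries, as had 36.1% of all genes and 48.0% of the abundant ones. All 7 genes were lowest in adult sham cartilage, as were 47.6% of all and 44.5% of the abundant genes. These shares are large, so the order of the libraries alone does not set the 7 genes apart. After median-of-ratios scaling Col2a1 was no longer lowest in adult sham cartilage, which left 6 genes where 28.2% of all genes had this pattern, and 5 genes, where 18.8% of all genes did, had opposite signs of injury at the 2 ages. Scaled to the chondrocyte markers, 3 genes were lowest in adult sham cartilage, and 1 gene, Col9a1, was highest in young sham cartilage and had both adult libraries below both young libraries, where the shares over all genes were 10.1%, 6.23% and 4.76%.

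Ratios between genes of 1 library are not changed by multiplying the library by a factor, although quantile normalization does change them, and they show which chains shifted against each other. The chains of type IX collagen spread wider than those of type XI. The FPKM ratio of Col9a1 to Col9a2 was 1.63 and 1.42 in the young libraries and 0.242 (sham) and 0.458 (injured) in the adult libraries. Col9a1 was thus above Col9a2 in both young libraries and below it in both adult libraries. The ratio of Col9a3 to Col9a2 stayed above 1 in every library, at 1.27, 1.53, 1.95 and 1.5. The ratio of Col11a1 to Col11a2 was 1.35, 1.29, 0.844 and 1.05, so the 2 chains of type XI collagen stayed near equal levels.

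Against Col2a1, the minor fibril genes did not keep a fixed proportion. The ratio of Col11a1 to Col2a1 was 0.0822 and 0.0750 in sham and injured cartilage of young mice and 0.05 and 0.0863 in that of adult mice. That of Col9a2 to Col2a1 was 0.0628, 0.0611, 0.0533 and 0.0940. Both were lowest in adult sham and highest in adult injured cartilage, but other genes did not follow this order. The ratio of Col9a1 to Col2a1 was highest in young sham cartilage, at 0.102, 0.0870, 0.0129 and 0.0431. That of Col9a3 was lowest in young sham cartilage, at 0.0800, 0.0932, 0.104 and 0.141, and that of Col11a2 was lowest in young injured cartilage, at 0.0609, 0.0580, 0.0593 and 0.0826. The ratio of Col27a1 to Col2a1 was lowest in young sham cartilage and highest in adult injured cartilage, at 0.0165, 0.0220, 0.0340 and 0.0601. Col2a1 stood 23.1, 16.2, 14.8 and 6.71 times above Acan in the same order.

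**Figure D3:**
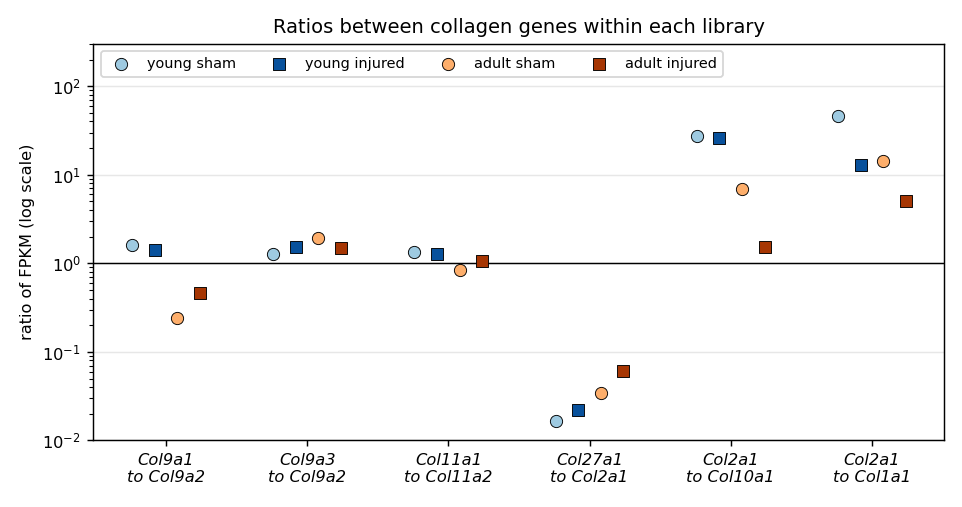
Ratio of FPKM between pairs of collagen genes within each library, on a log axis with a line at 1 and 1 point per library. Col9a1 to Col9a2 crosses the line between young (1.63 and 1.42) and adult cartilage (0.242 and 0.458), and Col2a1 to Col10a1 spans from 27.7 in young sham to 1.53 in adult injured cartilage.

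The 7 genes took a smaller share of all collagen transcripts in adult and in injured cartilage. Over the 44 collagen genes of the table, their part of all collagen FPKM was 80.6% and 74.2% in the sham and injured libraries of young mice, and 59.5% and 46.7% in those of adult mice. The order of these shares was not the order of their summed level, which was 13132, 11036, 4167 and 5651 FPKM. In adult injured cartilage the sum was above that of adult sham cartilage while the share was below it, and all collagen genes together summed to 12108 against 7009 FPKM.

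Col10a1, the collagen of hypertrophic cartilage, was at 338 FPKM in young sham, 302 FPKM in young injured, 459 FPKM in adult sham and 2446 FPKM in adult injured cartilage. It rose after injury in adult mice (log2 ratio 2.41) and was not called in young mice (log2 ratio -0.16), and a difference between these 2 ratios could not be tested. In adult injury 2 of 9 hypertrophic chondrocyte genes (Col10a1 and Mmp13) were called higher and 1 (Ihh) lower, with a median log2 ratio of 0.27. In young injury 2 of the 9 (Spp1 and Mmp13) were called higher and 1 (Mef2c) lower, with a median of 0.04. The share of Col10a1 in collagen transcripts was 2.08%, 2.03%, 6.54% and 20.2%. The 7 genes of types I, III, V and XXIV, the fibrillar collagens of skin, bone and tendon, held 9.87%, 16.4%, 16.7% and 23.3%. Col1a1 rose after injury at both ages, at 202.5, 615, 223 and 741 FPKM, and Col3a1 rose from 238.5 to 811 FPKM in adult cartilage. The ratio of Col2a1 to Col1a1, often read as a measure of cartilage against fibrous matrix, was 46.2, 12.9, 14.2 and 5.06, highest in young sham and lowest in adult injured cartilage.

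**Figure D4:**
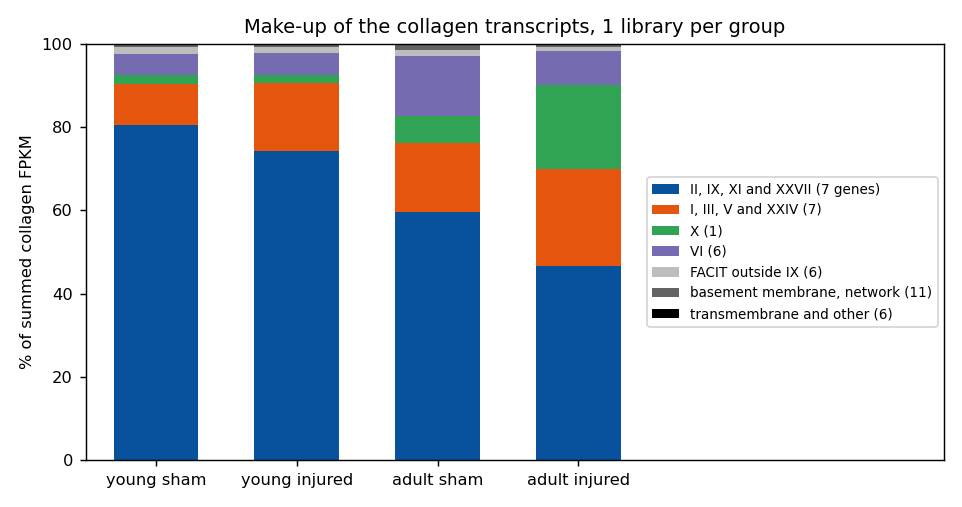
Share of the summed FPKM of 44 collagen genes held by each class, with 1 bar per library starting at 0%. The share of the 7 cartilage fibril genes steps down from 80.6% in young sham to 46.7% in adult injured cartilage, where type X reaches 20.2%.

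Other collagens showed their own patterns. Of 7 genes of the other fibrillar collagens, 4 were called higher in adult and 2 in young injured than in sham cartilage, with medians of 1.08 and 0.52. Col1a1, Col1a2 and Col3a1, among the adult calls, are also in the fibroblast list given above. The 3 genes of type VI collagen above 1 FPKM, Col6a1, Col6a2 and Col6a3, were not called in any of the 4 comparisons, and Col6a1 ran from 411 to 505 FPKM. Type VI collagen surrounds the chondrocyte. Of 6 collagens that, like type IX, bind to fibril surfaces, 3 were called lower in adult than in young sham cartilage, among them Col12a1 (89.4 to 13.3 FPKM) and Col16a1 (148 to 67.2 FPKM), and none was called after injury at either age. Of the 6, Col19a1 was at 0.0144 FPKM or less and could not be called. Of 11 basement membrane and network collagen genes, 2 were called higher and 3 lower in young injured cartilage, and Col4a1 went from 9.35 to 32.9 FPKM.

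The enzymes and chaperones that make procollagen were mostly not called. Of 21 genes for chain modification and folding, 1 was called lower in young injured cartilage and 2 higher in adult injured cartilage, and 5 were lower and 1 higher in adult than in young sham cartilage. The median log2 ratios of these 3 comparisons were -0.26, 0.29 and -0.44. Serpinh1, the collagen chaperone HSP47, was at 946, 1511, 839 and 848 FPKM, so its highest library was young injured cartilage and not, as for 6 of the 7 collagen genes, young sham cartilage. The prolyl hydroxylase subunit P4hb ranged from 572 to 767 FPKM. Plod2, a lysyl hydroxylase, was at 297, 275, 126 and 249 FPKM and fell between young and adult sham cartilage (log2 ratio -1.24). Of 12 genes for cleavage and cross-linking, 2 were called higher and 2 lower in adult than in young sham cartilage (median -0.14), 1 higher and 2 lower in young injured cartilage (median -0.04) and 1 lower in adult injured cartilage (median 0.40). Adamts3, which removes the amino-terminal propeptide of type II procollagen, was called lower in the first and second of these comparisons but not in adult injured cartilage, at 11.8, 5.34, 0.666 and 2.01 FPKM.

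Genes for breakdown of the fibril were among those called higher after injury at both ages. Of 7 genes, 2 were called higher in young and 4 in adult injured cartilage, and none lower, with median log2 ratios of 0.91 and 1.56. Mmp13, the main collagenase of type II collagen, was at 25.3, 474, 21.2 and 518 FPKM, so both injured libraries were far above both sham libraries. Mmp14, an activator of other matrix proteases, was at 52.3, 99.0, 38.5 and 135.5 FPKM and was called in adult cartilage. Ctsk, a collagen-degrading protease of osteoclasts, was at 87.4, 171, 136 and 403 FPKM and is also 1 of the 8 osteoclast markers given above, as is Mmp9. None of 8 collagen receptor genes was called after injury, with median log2 ratios of 0.00 (young) and 0.50 (adult), and Itga10, the chondrocyte integrin for type II collagen, was at 87.6, 58.8, 89.8 and 87.0 FPKM.

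Few of the transcription factors known for these collagen genes were called. Of 17 such genes, none was called in young injured cartilage, 1 (Runx2) was called higher in adult injured cartilage, and 3 were called lower in adult than in young sham cartilage, with median log2 ratios of -0.12, 0.19 and -0.43. Barx2 and Ppargc1a, at 0.192 FPKM or less, could not be called. Sox9 was at 42.3 FPKM in young sham, 25.4 FPKM in young injured, 31.2 FPKM in adult sham and 31.4 FPKM in adult injured cartilage. It was lowest in young injured cartilage, whereas all 7 collagen genes were lowest in adult sham cartilage. Sox5 was at 12.3, 6.74, 5.18 and 8.77 FPKM and Sox6 at 14.0, 8.35, 6.23 and 6.96 FPKM. Both of these partners were lowest in adult sham cartilage, where they were called lower than in young sham cartilage, with log2 ratios of -1.10 and -1.05. These calls were just past the threshold and are given for the deposited FPKM only. Over all genes, 10.6% were called lower in the same comparison. The third gene called lower was Sp3, a GC box binding factor.

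Proteins that bind the fibril surface did not follow the 7 genes as a group. Of 14 such genes, 4 were called higher and 4 lower in adult than in young sham cartilage, with a median log2 ratio of -0.64. After injury, 2 were called higher and 3 lower in young mice and 4 higher and 5 lower in adult mice, with medians of -0.12 and -0.51. Chad was at 2781, 2348, 20538 and 8281 FPKM, and Comp, which binds type II and type IX collagen, was at 1324, 1984, 7203 and 4611 FPKM. Both were highest in adult sham cartilage, the library in which all 7 collagen genes were lowest. Matn1 and Matn3, which also bind type II and type IX collagen, went the same way as Col9a1 between the sham libraries and had larger ratios, with log2 values of -8.83 and -6.90. In adult injured cartilage Matn1 rose to 16.8 FPKM, while Matn3 was at 1.48 FPKM.

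Genes of like profile were sought among the 8050 genes that averaged 5 FPKM or more, by the distance of their log2 values over the 4 libraries, centred per gene, from the median profile of the 7 genes. The nearest were Tdp2, a DNA repair enzyme (distance 0.045), Yme1l1, a mitochondrial protease (0.052), Ireb2, an iron-responsive RNA-binding protein (0.056), and Xpo1, a nuclear export receptor (0.058). They were followed by Tbc1d8b (0.083), the ribosomal protein gene Rps7 (0.087), Chordc1 (0.090) and, each at 0.108, Pds5a, Ell2 and Gmds. None of the 10 encodes a cartilage matrix protein, and 757 genes lay within a distance of 0.5. Rps7, for example, was at 711, 601, 226 and 367 FPKM. Among the 7 genes, Col11a2 (0.037) and Col9a2 (0.241) were nearest to their own median profile, and Col27a1 (1.11) and Col9a1 (2.37) were farthest, with 4054 and 7663 other genes closer than they were. The likeness rests on 4 libraries only.

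Scalings that multiply each library by a factor moved all 7 genes together, and quantile normalization moved Col2a1 apart from the other 6. For Col9a1 the log2 ratio of adult to young sham cartilage was -4.51 as deposited and -2.99 when scaled to the chondrocyte markers, the largest departure among 5 other scalings. Under quantile normalization the log2 ratio of Col2a1 went from -1.56 to -2.41 in the same comparison and from -0.24 to -0.93, the lowest of the 7, in young injury, and in adult injury it rose from 0.24 to 0.42 while the other 6 values were lower than as deposited.

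**Figure D5:**
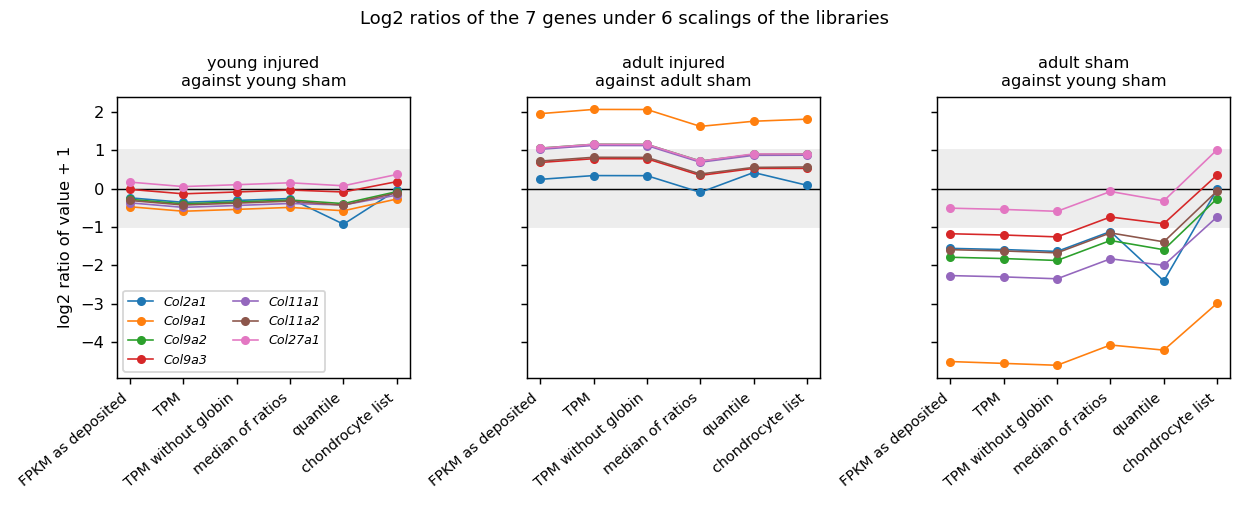
Log2 ratio of value + 1 of the 7 genes in the 3 main comparisons, with the deposited FPKM and 5 other scalings of the libraries along the x axis and the band of less than 2-fold in grey. Col9a1 stays outside the band in the adult injury and age panels under all 6 scalings, whereas Col27a1 goes from -0.51 to 1.01 in the age panel.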

How the data were processed

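RNA sequencing was performed on 1 library from each of 4 groups (young sham, young injured, adult sham, adult injured). The authors deposited 1 table of FPKM per gene and library, which are fragments relative to transcript length and mapped fragments. Poly-A selected RNA was used with a stranded kit. The submitters' processing notes name mm10, HISAT2 2.1.0, HISAT, StringTie 1.3.4d, STAR and SAMtools, and which tool made the FPKM is not given in the sources used here. A gene-level FPKM adds all transcripts of a gene, and a very abundant gene lowers the FPKM of the others.

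The 7 genes and all gene lists were chosen with earlier results of these data known. The genes named are the 7, the 10 nearest in profile among genes averaging 5 FPKM or more, and list members with high mean FPKM; other names, such as Sox5, Sox6, Sp3, Adamts3, Plod2, Mmp14 and Prg4, were chosen after their values were seen. Log2 ratios of FPKM + 1 were calculated without further scaling for 4 comparisons. The added 1 FPKM understates changes of low genes. With 1 library a group, no test was run, and the background is the share of all genes past 2-fold. The alternatives were pseudocounts of 0.1 and 5 FPKM, a minimum of 1 FPKM, FPKM rescaled to the same sum (TPM) with and without globin genes, median-of-ratios, quantile and chondrocyte marker scaling, and thresholds of 1.5-fold and 3-fold. Promoter sequences and coordinates came from RefSeq tables of GRCm38.p6 (5 of the 7 genes had a promoter entry), and shared 31-base words and exons from GENCODE transcripts of the same build. Scripts were tested on simulated data. Python 3.11.15, numpy 2.4.6, pandas 2.3.3, scipy 1.17.1 and matplotlib 3.10.9 were used.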

Additional observations from a re-analysis of the deposited data

Results flagged for a closer look

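For 6 of the 7 genes the injured library was below sham in young mice and above sham in adult mice. The young minus adult difference in the log2 ratio of injury was -2.43 for Col9a1, -1.40 for Col11a1, -1.34 for Col9a2, -1.03 for Col11a2, -0.70 for Col9a3 and -0.48 for Col2a1. Every difference rests on 1 library per group and was not tested. None of the young values was past 2-fold, and for Col2a1, Col9a3 and Col11a2 the adult value was not either. For Col2a1 the adult value turned to -0.10 after median-of-ratios scaling, so that its directions were then the same, and for Col9a3 the young value turned to 0.18 with scaling to the chondrocyte markers. The adult sham library, in which the summed level of muscle markers was the highest of the 4 libraries at 1924 FPKM, enters all 6 differences, and its part in them was not tested.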

How the results depend on the processing

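Under 5 other scalings, 111 of 140 values of single genes kept their direction and their side of the 2-fold threshold, and the pseudocounts and the filter on low values could hardly move genes of this level. In adult mice, the median log2 ratio of injury was 0.69 with median-of-ratios, 0.87 with quantile and 0.87 with chondrocyte marker scaling. The number of genes called higher went from 4 to 1 under these and with a threshold of 3-fold. Over all genes, the share called higher was 4.41%, 3.99% and 6.9% with these scalings and 2.43% at 3-fold. Between the sham libraries, chondrocyte marker scaling gave a median of -0.063 with 1 gene higher and 1 lower (32.6% and 0.99% of all genes), and turned Col9a3 to 0.35 and Col27a1 to 1.01. Between the injured libraries, the number called higher went from 2 to 1 with TPM, TPM without globin genes, median-of-ratios scaling and a threshold of 3-fold. The shares of all genes called higher were 3.4%, 4.0%, 2.53% and 1.03% in the same order. For the same libraries, chondrocyte marker scaling gave a median of -0.61, 0 genes higher, 1 lower (0.605% and 29.4% of all genes) and -0.10 for Col2a1. The median difference between the ages in injury went from -1.03 to -0.71 with median-of-ratios and -0.67 with chondrocyte marker scaling. With the latter, 3 genes were lowest in adult sham cartilage, 1 was highest in young sham cartilage and 1 had both adult below both young libraries. With adult injured in place of adult sham cartilage, the median of the age comparison was -0.88 and 3 genes were called lower, where 4.15% of all genes were. With a minimum mean of 20 FPKM, 4 of the 10 genes of like profile were shared. Over all genes, the share of calls that were higher went from 82.5% to 60.3% in adult injury and from 20% to 53.3% between the sham libraries with median-of-ratios scaling, where calls went from 1255 to 802 higher in adult injury and, between the sham libraries, from 484 to 1065 higher and from 1934 to 932 lower. With chondrocyte marker scaling it was 97.1% between the sham libraries and 2.02% between the injured libraries, the latter from 63.1%, or 49.8% with TPM. The cause of these shifts was not tested. No paired analysis was possible because each group is 1 library with no replicate number, and for the same reason no library could be left out within a group. Depth limits none of the 7 genes, whose counting error was at most 1.6% if 1 step is 1 fragment, but the spread between mice was not measured.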

Other observations

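Most other chondrocyte markers also had lower values in adult sham cartilage. Of the 18 markers, 13 were below and 5 above their young sham level, with a median log2 ratio of -0.98, and 9 were called lower. The 3 called higher were Cytl1 (648 to 26541 FPKM), Chad (2781 to 20538 FPKM) and Comp (1324 to 7203 FPKM). The antiangiogenic chondromodulin gene Lect1 (2130.5 to 634 FPKM) and Ucma, a gene of the upper growth zone (573 to 139 FPKM), were among the lower. Small proteoglycans that bind fibrils rose after injury at both ages in the case of Lum, at 230.0, 1437, 129 and 778 FPKM in the order of libraries used above, and of Dcn, at 1001, 2786, 1393 and 5555 FPKM. Fmod, a relative of Lum, fell at both ages, with 1589.6, 758, 1057 and 444 FPKM. Prg4, the lubricant gene of the cartilage surface, was at 2049, 421, 3565 and 2658 FPKM and was called lower after injury in young mice (log2 ratio -2.28). These are values of 1 library each, without a test.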
